A study of Drosophila melanogaster with 30 samples.

Results

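Short chromatin loops, those whose anchors start less than 33 kb apart, made up 201 of the 395 loops that the authors listed in embryos and wing discs of the fruit fly Drosophila melanogaster. They were 87 of 186 embryo loops (46.8%) and 114 of 209 wing disc loops (54.5%), and were chosen by distance alone, with no use of contact counts. The series set chromatin contacts against the presence of GAGA-associated factor (GAF, the product of Trithorax-like, Trl). Of its 30 samples, 8 embryo contact maps, 6 wing disc contact maps and 9 wing disc RNA-seq libraries were used, and 7 CUT&Tag samples were not analysed here. Embryos aged 2 to 2.5 h were either of the genotype sfGFP-GAF(N), in which GAF carries a green fluorescent protein tag (control, n = 4), or GAF(deGradFP), in which GAF is removed as protein by the deGradFP method (written GAF-deGradFP here, n = 4). Discs came from homozygous late larvae whose GAF carries a Halo tag. It was full length in Halo-Trl, lacked the POZ domain in delta-POZ or lacked the Q domain in delta-Q, with n = 2 contact maps of 90 discs and n = 3 RNA libraries of 30 discs per genotype. Each genotype is one line, so that line background and deletion cannot be told apart, and both tissues mix many cell types.

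GAF is a zinc finger protein that binds GA-rich DNA at promoters and at tethering elements, sites near genes that bring distant promoters and enhancers together. Its POZ domain lets GAF molecules join one another, and the glutamine-rich Q domain lies at the other end of the protein. A loop in a contact map is a pair of sites that touch more often than their surroundings, and contacts fall steeply with distance whether or not a loop is present. Short loops therefore tend to carry many contacts. Such loops can join neighbouring promoters, alternative promoters of 1 gene, or a promoter and a nearby enhancer. What the loops here join is known only from the genes that the lists name, and many loops have none.

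Embryo libraries held 1715 to 7347 contacts summed over all loops and disc libraries 23944 to 31995, so that a short loop had a median of 8 to 39 contacts per embryo library and 101.5 to 148 per disc library. Contacts are given below as normalised contacts, which are raw contacts divided by the relative size of the library. The median coefficient of variation between libraries of a group was 21.7% to 22.8% for short embryo loops and 8.36% to 9.29% for short disc loops. Every short loop passed the filter of 10 contacts. Control 3 was the shallowest embryo library, and GAF-deGradFP 4 lay apart from the other depleted libraries at several loops named below. In the RNA, summed wing disc markers were at 1607 to 2108 CPM (reads per gene scaled to a common library size) in every library. Summed fat body markers were at 11.8 to 3385 CPM in Halo-Trl, 17.5 to 58.2 in delta-POZ and 401 to 6075 in delta-Q, and gut markers did not exceed 0.429 CPM. All 6 fat body markers were lower in delta-POZ at an unadjusted p under 0.05, where 1291 of all 10359 genes were. By adjusted p, 0 of these 6 markers were called lower, against 5.2% of all genes. Blood cell markers summed to 112 to 279 CPM in Halo-Trl, 145 to 580 for delta-POZ and 216 to 684 for delta-Q. Of these, 2 of 5 were called higher in delta-POZ than in Halo-Trl, against 4.93% of all genes. Myoblast and muscle markers summed to 201 to 226 CPM for Halo-Trl, 270 to 317 for delta-POZ, above all other libraries, and 210 to 242 for delta-Q. Here 1 of 6 was called higher in delta-POZ, against the same 4.93% of all genes. Tissue RNA cannot tell apart fewer cells of a type and less RNA per cell, and the part of other cell types in the results was not tested.

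The short loops differed in what the lists name at their anchors. In embryos they spanned 10.4 to 32.4 kb (median 21.2 kb), with anchors of 1600 bp, and in discs 6.4 to 32.8 kb (median 20.0 kb), with anchors of 5000 bp. The embryo list named 2 genes at 31 short loops, 2 promoters of 1 gene at 12 and no gene at 44. Loops between 2 promoters of 1 gene were 13.8% of the short and 3.0% of the longer embryo loops. The 12 genes were eyes absent (eya), Cyclin E (CycE), TfAP-2, bi, vri, erm, tou, brat, Pvf3, CG31324, kis and dve. The disc list named 1 gene at 66 short loops, 2 genes at 14 and none at 34. Of the pairs of different genes whose order could be looked up, 18 of 28 in embryos and 9 of 14 in discs had no other protein-coding gene between them. The adjacent pairs include the proneural genes ac and sc, the Iroquois genes ara and caup, the T-box genes Doc1 and Doc2, and E5 and ems. By chromosome arm the short loops were 20 on 2L, 8 on 2R, 16 on 3L, 18 on 3R and 25 on X in embryos, and 21, 30, 22, 17 and 24 in discs. At the edge of the rule, the last loops inside it were an unnamed embryo loop of 32.4 kb and the disc loops of B-H2 and toe/eyg at 32.8 kb. The first outside were toe/eyg and an unnamed loop at 33.2 kb in embryos and a loop between ths promoters at 33.6 kb in discs.

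Contacts fell with distance within the short loops themselves. In control embryos the mean ranged from 5.43 to 80.9 normalised contacts, with a median of 37.3 for the 39 loops under 20 kb and 21.9 for the 48 loops of 20 to 33 kb. In Halo-Trl discs it ranged from 39.5 to 583, with medians of 138 for the 54 loops under 20 kb and 110 for the 60 loops of 20 to 33 kb. Spearman's rho between distance and contacts was -0.45 over 87 embryo loops and -0.34 over 114 disc loops, each a description over loops that share the same libraries.

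**Figure D1:**
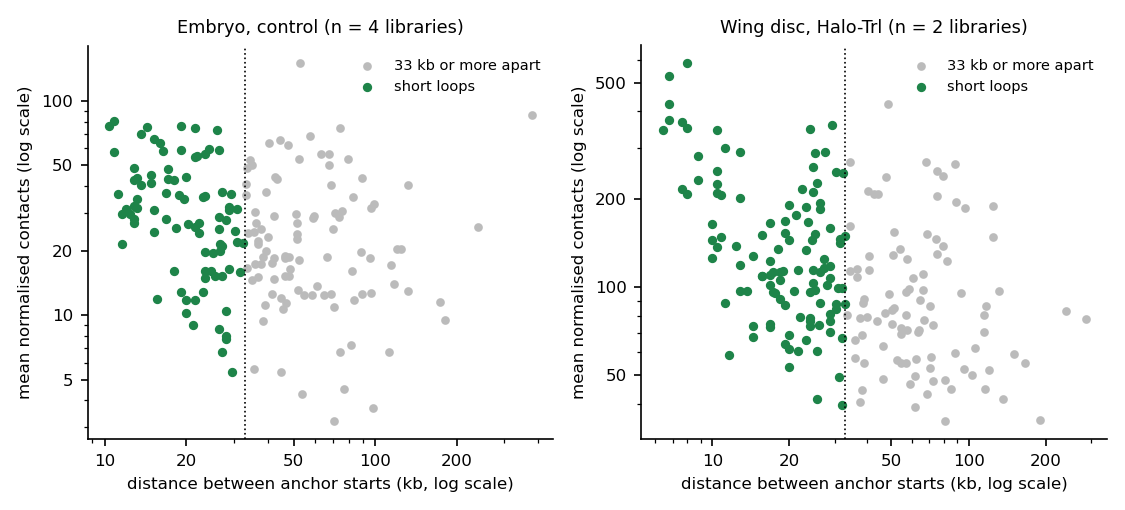
Mean normalised contacts of each loop (vertical, log scale) against the distance between its anchor starts in kb (horizontal, log scale), in control embryos (left) and Halo-Trl wing discs (right). Green points are the 87 and 114 short loops, grey points the longer ones and the dotted line marks 33 kb; the highest short loops reached 80.9 and 583.

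Transcription factor genes held most of the strongest embryo loops. The loop between 2 promoters of eya, a cofactor of the retinal determination network, was the highest of the short embryo loops, with 77.4, 77.7, 84.5 and 84.0 normalised contacts in controls 1 to 4. It was followed by an unnamed loop on 3R (16403001 to 16404600 and 16413401 to 16415000) at 76.6 ± 7.58 (SD, n = 4), by KP78a/pros at 76.3 ± 9.74 and by an unnamed loop on 2L (14293401 to 14295000 and 14307801 to 14309400) at 75.9. The loops of unc-4/OdsH (homeobox genes), ac/sc, TfAP-2 and Kr-h1 held 74.6 ± 14.3, 73.0 ± 12.5, 70.2 ± 11.1 and 66.7 ± 3.06. The differences between neighbours in this order were smaller than the spread between libraries. The 21 short embryo loops grouped here as those of transcription factor or cofactor genes had a median of 48.3 normalised contacts, against 29.6 for all 87. The 44 loops with no gene named were lower, at a median of 26.2. Loops with 2 genes named had a median of 37.7 and those with 2 promoters of 1 gene 35.8. The part of naming in the difference was not tested.

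In discs, the short loops with the most contacts included very short ones on 2L and 2R. The loop between CG12288 and the aminopeptidase gene ApepP (2L, 16899701 to 16904700 and 16907701 to 16912700, 8.0 kb) had 620 and 546 normalised contacts in the 2 Halo-Trl libraries. The loop of blw, the alpha subunit of ATP synthase, and CycB, a mitotic cyclin (6.8 kb), had 572 and 485, and that of gem (6.8 kb) had 433 and 415. At these distances little sequence lies between the 5000 bp anchors. Of the 8 highest short disc loops, that of Dscam1, a neuronal adhesion gene, was the longest, at 29.2 kb, with 359 ± 0.561 (SD, n = 2). The 29 short disc loops grouped here as those of transcription factor or cofactor genes ranged from 64.0 to 424. Their median was 147, against 121 for all 114. This group is a chosen one, and ecdysone genes such as EcR, Eip75B and Hr3 were grouped apart. By naming, the medians were 118 for short disc loops with 1 gene named, 151 with 2 genes and 107 with none.

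A part of the short loops was found in both tissues. With 5 kb of tolerance, 23 of 87 short embryo loops (26.4%) matched 24 of 114 short disc loops (21.1%), against 38.4% of the longer embryo loops that matched a disc loop. Among them were ac/sc, ara/caup, gcm/gcm2, Doc1/Doc2, E5/ems, comm2/comm, eya, dve, vri, opa, tey, pros and Cyp18a1. The embryo list left 9 of the matched loops unnamed where the disc list named CG42389, wb, ss, vg, HGTX, Ptp99 (read as Ptp99A), Smr, ds and B-H2. Levels in the 2 tissues were loosely related over these 23 loops (Spearman's rho 0.41, a description). The loop of wb, a laminin subunit, was low in control embryos, with 16.0 normalised contacts on average, and among the higher short loops of Halo-Trl discs, with 288. Since anchors and depth differ between the tables, such levels are read only within a tissue.

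Short loops took a slightly larger share of all loop contacts when GAF was depleted. In control embryos 1 to 4 the share was 52.6%, 52.9%, 51.9% and 52.4%, and in GAF-deGradFP embryos 1 to 4 it was 54.1%, 54.4%, 53.6% and 54.3%. Every depleted library lay above every control, with means of 54.1% ± 0.35 and 52.4% ± 0.42 (SD, n = 4 each). The loops of 20 to 33 kb took 23.0% ± 0.81 of contacts in controls and 24.3% ± 0.48 after depletion, and those under 20 kb 29.4% ± 0.57 and 29.8% ± 0.22. In discs the share was 64.7% and 64.0% in Halo-Trl, 66.1% and 65.5% for delta-POZ, and 64.3% and 64.4% for delta-Q. Both delta-POZ libraries lay above the other 4, and delta-Q lay within the range of Halo-Trl. With every loop called in any comparison of the tissue left out, an alternative chosen after the data were seen, the embryo shares were 53.0% ± 0.55 and 54.5% ± 0.43 and the groups still did not overlap. The disc means were then 65.5% ± 0.57 in Halo-Trl, 66.3% ± 0.45 in delta-POZ and 65.4% ± 0.17 in delta-Q. These shares do not depend on scaling between libraries and are given as a description, with no test.

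**Figure D2:**
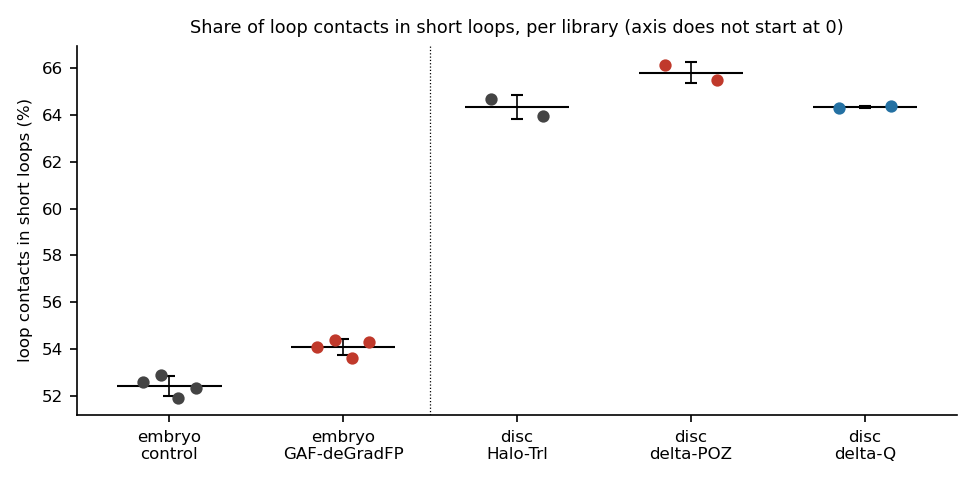
Percent of all loop contacts that fall in short loops (vertical) in each contact map library, by tissue and genotype (horizontal). Points are libraries, lines are group means and bars are SD; the 4 GAF-deGradFP libraries (53.6% to 54.4%) lie above the 4 controls (51.9% to 52.9%).

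The embryo comparison asked which loops change when GAF protein is removed. A single short loop changed, that between 2 promoters of TfAP-2, an AP-2 family transcription factor that acts in limb and head development. It held 78.6, 73.5, 74.7 and 53.8 normalised contacts in controls 1 to 4 and 38.8, 38.6, 39.9 and 41.1 in GAF-deGradFP 1 to 4. The depleted libraries lay within a narrow band below every control. The means were 39.6 ± 1.16 and 70.2 ± 11.1 (SD, n = 4 each), a fall of log2 -0.81 (SE 0.20, edgeR adjusted p = 0.0237; 3L, 21584201 to 21585800 and 21597801 to 21599400). The authors' deposited table gives it a log2 fold change of -0.85 with adjusted p = 0.0283. Thus 1 of 87 short loops was called lower, against a background of 2.15% of all embryo loops, and 0 were called higher, against 0.538%. At an unadjusted p under 0.05 there were 5 lower and 6 higher short loops, against 8.6% and 6.99% of all embryo loops. DESeq2 called 1 lower and 0 higher, against 1.61% of all embryo loops called in either direction. The median log2 fold change was 0.06 over the short loops and 0.04 over all loops, and 39 of 87 were negative.

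Other short embryo loops shifted without passing the test, and those of CycE and an unnamed 3L loop did so by as much as TfAP-2. CycE, which drives entry into S phase, is joined by a loop between 2 of its promoters that held 12.1, 23.7, 26.0 and 24.5 normalised contacts in controls 1 to 4 and 32.7, 27.0, 40.9 and 50.6 in GAF-deGradFP 1 to 4. Every depleted library lay above the controls (log2 0.81, SE 0.26, edgeR adjusted p = 0.0694). An unnamed loop on 3L (1379401 to 1381000 and 1400601 to 1402200) had 12.1, 10.1, 3.2 and 10.6 in controls and 27.6, 22.4, 17.1 and 15.8 after depletion, again without overlap (log2 1.05, SE 0.33, edgeR adjusted p = 0.0691). The loop between comm2 and comm, which control axon crossing at the midline, had 43.5, 31.3, 42.2 and 29.4 in controls and 13.8, 21.6, 24.7 and 28.5 after depletion (log2 -0.68, SE 0.25, adjusted p = 0.138). Its depleted libraries all lay below the controls. The segmentation genes slp1 and slp2 were joined by a loop with 36.6 ± 7.87 normalised contacts in controls and 57.4 ± 11.9 after depletion, with overlapping groups (log2 0.59, SE 0.22, adjusted p = 0.138; named after its values were seen). Groups did not overlap at 5 lower and 5 higher short loops, against 4.84% and 5.91% of all embryo loops.

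Which short embryo loops were called depended on single libraries. Without GAF-deGradFP 4, a library that differed from the other depleted ones, 5 short loops were called, against 16 of all 186 loops (8.6%). TfAP-2 (log2 -0.81), comm2/comm (-0.80) and an unnamed X loop of 12.8 kb (-1.18) were then lower, and unnamed loops on 3L (1.15) and 3R (0.73) were higher. The X loop (2292601 to 2294200 and 2305401 to 2307000; named after its values were seen) had 27.8, 23.7, 29.2 and 31.8 in controls, 9.48, 13.9 and 13.3 in GAF-deGradFP 1 to 3, and 28.5 in GAF-deGradFP 4. The TfAP-2 call was lost without control 1, 2 or 3 or GAF-deGradFP 1, 2 or 3, with an edgeR adjusted p up to 0.105 over its alternatives. Its fold change stayed between log2 -0.93 and -0.74 over the fits that left out a library.

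**Figure D3:**
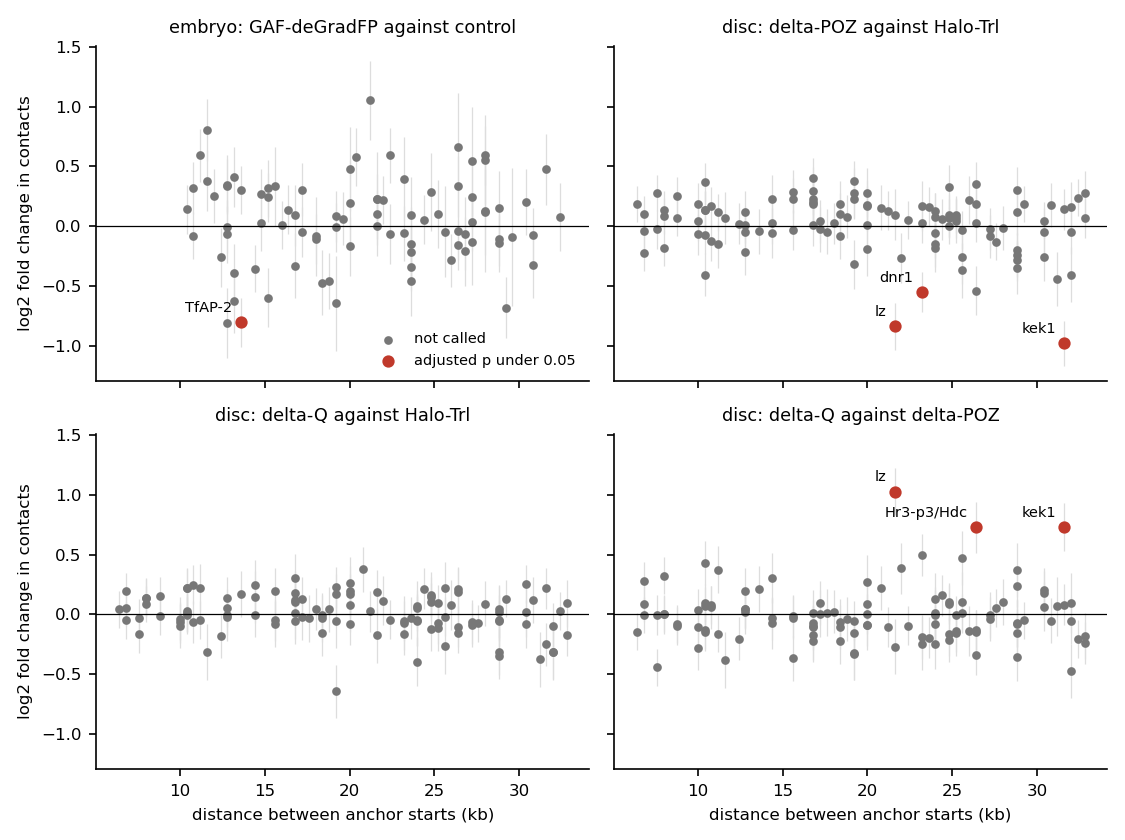
Log2 fold change in contacts of each short loop (vertical) against the distance between its anchor starts in kb (horizontal), in the embryo comparison and the 3 disc comparisons. Red points passed an edgeR adjusted p of 0.05 and carry their label, grey points did not and bars are the standard error; the called disc loops lie between 21.6 and 31.6 kb.

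In wing discs, 3 short loops fell when GAF lacked the POZ domain, and each names a single gene. The kek1 loop (31.6 kb; 2L, 12820501 to 12825500 and 12852101 to 12857100) lost 49.3% of its contacts. Kekkon1 is a transmembrane inhibitor of the EGF receptor. The loop held 144 and 139 normalised contacts with full-length GAF, 73.0 and 70.5 without the POZ domain, and 130 and 107 without the Q domain. The delta-POZ libraries lay far below the other 4 (log2 -0.98, SE 0.19, edgeR adjusted p = 1.14e-05).

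The loop of lozenge (lz), a Runx factor of blood and eye cells, lost 44.4% (21.6 kb; X, 9281901 to 9286900 and 9303501 to 9308500). It held 104 and 126 normalised contacts with full-length GAF, 58.2 and 69.6 without the POZ domain, and 148 and 113 without the Q domain, with delta-POZ below all others (log2 -0.84, SE 0.20, edgeR adjusted p = 5.56e-04). The loop of dnr1, an inhibitor of apical caspases, lost 31.5% (23.2 kb; 2R, 22567301 to 22572300 and 22590501 to 22595500). It held 190 and 187 with full-length GAF, 140 and 118 without the POZ domain, and 188 and 175 without the Q domain, again with delta-POZ lowest (log2 -0.55, SE 0.17, edgeR adjusted p = 0.0291). None of these loops had a match in the embryo list.

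**Figure D4:**
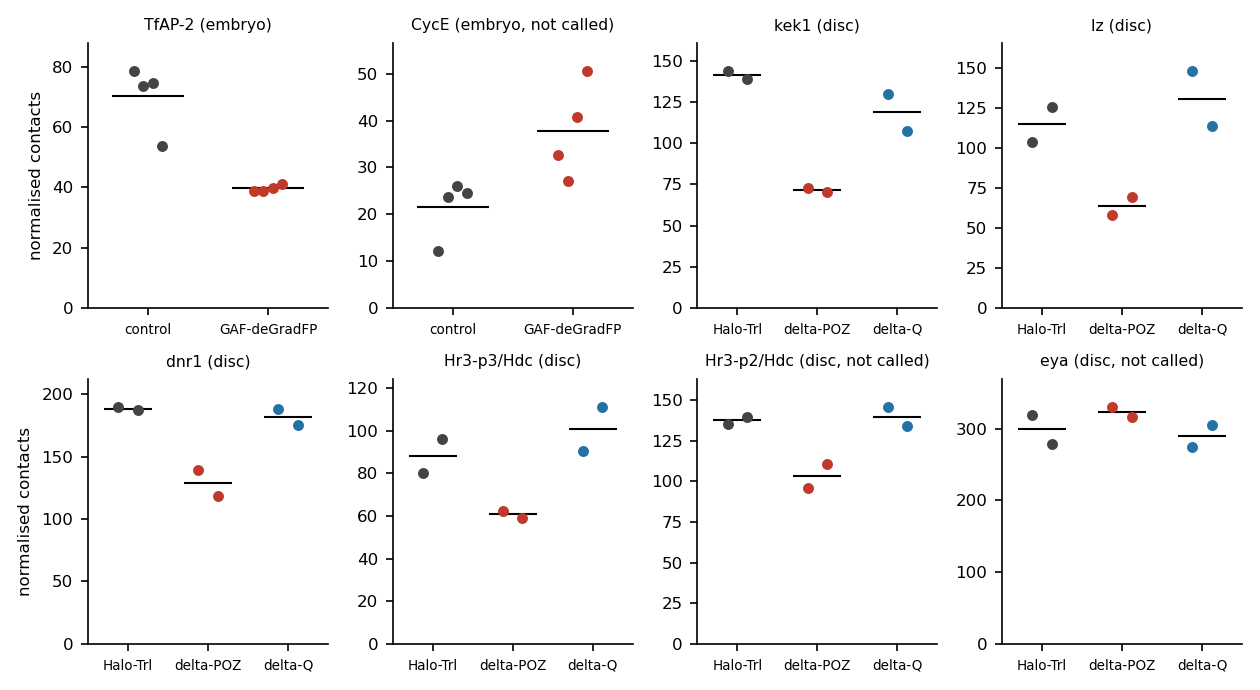
Normalised contacts (vertical, from 0) per library and genotype (horizontal) at the short loops called in any comparison and, for contrast, at CycE, Hr3-p2/Hdc and eya, which were not called. Points are libraries and lines are group means; at kek1 the delta-POZ libraries (73.0 and 70.5) lie below all others.

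In all, 3 of 114 short disc loops were called lower in delta-POZ, against a background of 4.31% of all disc loops, and 0 were called higher, against 0.0%. At an unadjusted p under 0.05 there were 6 lower and 4 higher, against 8.13% and 2.39% of all loops. DESeq2 called 2 lower (kek1 and lz) and 0 higher, against 3.83% of all disc loops called in either direction. The called loops were among the 60 of 20 to 33 kb, and 0 of the 54 under 20 kb were called, a difference that was not tested. Groups did not overlap at 17 lower and 32 higher short loops, against 19.6% and 22.0% of all disc loops. The median log2 fold change was 0.05 over the short loops and 0.02 over all loops; under upper quartile scaling the former became -0.02, so that no general direction is given. The authors' deposited table calls 2 short loops lower, kek1 (log2 -0.98, adjusted p = 0.00255) and lz (-0.84, 0.0420), and gives dnr1 a log2 of -0.55 with adjusted p = 0.141. The call of lz was lost when delta-POZ 1 or Halo-Trl 2 was left out, and that of dnr1 when any of the 4 libraries compared was left out. Such fits leave 1 library in a group. With a library left out, log2 fold changes ran from -0.98 to -0.70 at lz and from -0.67 to -0.43 at dnr1.

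Between delta-POZ and Halo-Trl, none of the short loops at genes of the ecdysone receptor cascade was called by edgeR with TMM scaling. Of all disc loops, 4.31% were called lower and 0.0% higher. The list names EcR, Eip75B, Eip63E, Cyp18a1, tai and Hr3 at 8 short disc loops, at 70.6 to 290 normalised contacts. Hr3, a nuclear receptor of the ecdysone cascade, shares its loops with Hdc, which makes histamine. Both Hr3 loops end near the same Hdc anchor and are not independent. The longer one (26.4 kb; 2R, 10209301 to 10214300 and 10235701 to 10240700) held 80.1 and 96.2 with full-length GAF, 62.4 and 59.2 without the POZ domain, and 90.5 and 111 without the Q domain. The shorter one (10.4 kb) held 135 and 140, 96.3 and 111, and 146 and 134. At both, delta-POZ lay below the other genotypes, with log2 -0.54 (SE 0.21, edgeR adjusted p = 0.137) and -0.41 (SE 0.18, adjusted p = 0.261) against Halo-Trl. Under upper quartile scaling the longer one was called lower (log2 -0.61, edgeR adjusted p = 0.0479), where 6.7% of all disc loops were called. Log2 fold changes of the 8 loops ran from -0.54 to 0.33, the highest at a loop of Eip75B.

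Among the 29 short disc loops grouped as those of transcription factor or cofactor genes, apart from the ecdysone genes, 1 (lz) was called lower in delta-POZ. The background was 4.31% of all disc loops. None was called higher, against 0.0%. Their median log2 fold change was 0.14, against 0.05 over all short disc loops, with a highest value of 0.36 at Smr, a corepressor. The loop of tey, which is not in this group, held 133 and 172 with full-length GAF and 221 and 179 without the POZ domain (log2 0.38, SE 0.17, edgeR adjusted p = 0.261). The eya loop held 319 and 278 with full-length GAF, 330 and 317 without the POZ domain, and 274 and 304 without the Q domain, and Halo-Trl values overlapped both others. A further 11 loops were grouped as those of cell surface, matrix and signalling genes (Notch, Ser, ds, kek1, Dscam1, Ptp99A, comm2/comm, wb, trol, kibra and RapGAP1). Of these, kek1 was called lower and 0 were called higher, against the same 4.31% and 0.0% of all disc loops. Their median log2 fold change was 0.05. The highest log2 fold change of any short loop in delta-POZ was 0.40, at the loop labelled CG42684 (raskol, a Ras GTPase-activating protein), with 132 and 115 contacts for full-length GAF and 149 and 174 without the POZ domain (SE 0.17, adjusted p = 0.255).

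Removal of the Q domain gave no called change at the short loops. Against Halo-Trl, edgeR called 0 of 114 lower and 0 higher, where the background of all disc loops was 0.0% in both directions. At an unadjusted p under 0.05 there were 1 lower and 1 higher, against 0.957% of all loops in each direction, and DESeq2 called 0. The lowest was an unnamed loop on X (20486701 to 20491700 and 20505901 to 20510900), with 89.6 and 83.9 normalised contacts for full-length GAF, 58.2 and 79.2 without the POZ domain, and 61.1 and 49.5 without the Q domain (log2 -0.64, SE 0.22, edgeR adjusted p = 0.369). At kek1 the log2 difference from Halo-Trl was -0.25 with a 95% interval of -0.60 to 0.10, at lz 0.19 (-0.17 to 0.54) and at dnr1 -0.05 (-0.38 to 0.27). The groups did not overlap at 14 lower and 16 higher short loops, against 12.4% and 13.4% of all disc loops.

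The deletions were also compared with each other. At 3 short loops delta-Q was called above delta-POZ, against a background of 4.31%, and at 0 it was called below, against 0.0%. Called or not, 65 of the 114 short loops had a negative log2 fold change, with a median of -0.03. The difference at lz was log2 1.03 (SE 0.20, edgeR adjusted p = 2.29e-05), kek1 by 0.73 (SE 0.20, adjusted p = 0.00816) and the longer Hr3/Hdc loop by 0.73 (SE 0.21, adjusted p = 0.0154). The dnr1 loop (0.50, SE 0.18, adjusted p = 0.0819) and the shorter Hr3/Hdc loop (0.43, SE 0.19, 0.220) were not called. An unnamed loop of 7.6 kb on 2R (12614101 to 12619100 and 12621701 to 12626700) went the other way, with 416 and 476 without the POZ domain and 313 and 343 without the Q domain (log2 -0.45, SE 0.15, adjusted p = 0.0765), and was called lower when only total contacts (adjusted p = 0.0209) or the longer loops (0.0313) set the scale. At an unadjusted p under 0.05 there were 4 lower and 7 higher short loops, against 2.87% and 9.57% of all disc loops. DESeq2 called 1, lz, against 2.39% of all disc loops. Groups did not overlap at 21 lower and 17 higher short loops, against 15.3% and 18.7%. This comparison shares the delta-POZ libraries with that against Halo-Trl. With a library left out, which leaves 1 in its group, the log2 fold change of lz ran from 0.81 to 1.20. It ran from 0.58 to 0.86 at kek1 and from 0.58 to 0.87 at the longer Hr3/Hdc loop, which both lost their calls in some of these fits.

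Embryo and disc values at the 23 shared short loops come from different samples. None of them was called in either tissue. The background was 2.15% of all embryo loops called lower after depletion and 0.538% higher. For delta-POZ against Halo-Trl it was 4.31% of all disc loops lower and 0.0% higher. The comm2/comm loop had log2 fold changes of -0.68 in depleted embryos (SE 0.25) and -0.29 in discs of delta-POZ (SE 0.17), while Smr had 0.33 and 0.36 (SE 0.26 and 0.18). At ac/sc they were -0.29 and 0.07, at eya -0.08 and 0.12, and at Doc1/Doc2 0.22 and 0.17. Spearman's rho between the 2 sets of fold changes was 0.66 over the 23 loops, which share libraries within each tissue, so it is given as a description.

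RNA gave a second readout of the genes that the disc list names at short loops. Of 92 names, 91 matched the RNA table, as 90 genes, of which 83 were expressed enough to be tested. In Halo-Trl their levels ran from 0.0 to 2648 CPM, with a median of 59.9, and 35 of the 90 were over 100 CPM. The targeted gene, Trl, was at 51.3, 49.8 and 41.8 CPM in Halo-Trl, 78.4, 67.7 and 61.0 in libraries of delta-POZ, and 56.6, 60.3 and 64.0 in those of delta-Q. It was called higher in the first of these deletions (log2 0.54, SE 0.12, edgeR adjusted p = 0.0234), the 1 call among the 28 tested genes of a list of GAF, loop and insulator proteins, and the call was lost in 4 of the 9 fits that left out a library (adjusted p up to 0.104). Between delta-POZ and Halo-Trl, 4 of the 83 genes were lower and 6 higher, that is 4.82% and 7.23%, against a background of 5.2% and 4.93% of all genes tested, so that these shares lie near the background.

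Of the genes at the called loops, dnr1 also fell in RNA. It was at 91.2, 134 and 115 CPM with full-length GAF, 74.4, 57.1 and 72.5 without the POZ domain, and 97.7, 114 and 107 without the Q domain. All delta-POZ libraries lay below the other 6 (log2 -0.74, SE 0.15, edgeR adjusted p = 0.0153, and up to 0.0655 without Halo-Trl 2 or 3, where the call was lost), and delta-Q was higher than delta-POZ (log2 0.64, SE 0.15, adjusted p = 0.0456, and up to 0.150 with a library left out). kek1 was at 371, 410 and 408 CPM in Halo-Trl and 469, 452 and 429 without the POZ domain (log2 0.18, SE 0.12, edgeR adjusted p = 0.358), without a fall beside its loop. lz was close to undetected, at 0.188, 0.752 and 0.217 CPM with full-length GAF, 0.0, 2.79 and 0.118 without the POZ domain, and 0.116, 2.85 and 0.555 without the Q domain. Hr3 was at 1.26, 2.07 and 4.24 CPM in Halo-Trl libraries, 0.725, 1.11 and 0.459 in those of delta-POZ, and 4.42, 2.81 and 3.49 in those of delta-Q. Its delta-POZ libraries lay lowest, with a difference from Halo-Trl that was not called (log2 -1.72, SE 0.52, adjusted p = 0.0641) and one from delta-Q that was (log2 2.22, SE 0.52, adjusted p = 0.0431, and up to 0.127 with a library left out). Hr3 overlaps other annotated genes, and whether reads were counted by strand is not given.

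Other genes at short loops changed in RNA while their loops were not called. CG12288, at the loop with the most contacts, was at 38.1, 36.6 and 38.7 CPM in Halo-Trl and 9.53, 7.85 and 13.9 without the POZ domain (log2 -1.86, SE 0.19, edgeR adjusted p = 4.40e-04), while that loop held 620 and 546 normalised contacts in Halo-Trl and 651 and 586 in delta-POZ. Its partner ApepP was at 233, 255 and 234 CPM against 203, 212 and 235 (adjusted p = 0.487). CG12288 overlaps the gene tweek in the annotation. Of the other genes called in this RNA, Trl, Pgant2, bun, Cht6, RapGAP1, CycE and CG12123 also overlap annotated genes. RapGAP1, which inactivates Rap1, rose from 42.7, 53.6 and 45.7 to 86.3, 141 and 111 CPM (log2 1.25, SE 0.17, adjusted p = 0.00187).

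The other genes that rose in delta-POZ were bunched (bun, log2 0.59), the chitinase gene Cht6 (0.65), raskol (0.44), scarface (scaf, 0.55) and the glycosyltransferase gene Pgant2 (1.03). Those that fell were araucan (ara, -0.39) and blw (-0.53). Their edgeR adjusted p lay between 0.0151 and 0.0439, and each lost its call in some of the fits that left out a library. With 1 library left out, 2 to 11 of the 83 genes were called, fewest without Halo-Trl 2 (3, against 4.44% of all genes) or Halo-Trl 3 (2, against 3.73%), and the share of all genes called moved as well, up to 11.5%. Still, CG12288 and RapGAP1 were called in all 14 alternatives. The loops of the 9 genes called besides dnr1 had log2 fold changes of at most 0.44 in size. The gene pros, at a shared loop, was at 581 CPM in delta-POZ 2 and at 0.65 to 20.7 in the other 8 libraries, so its fold change is not read.

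**Figure D5:**
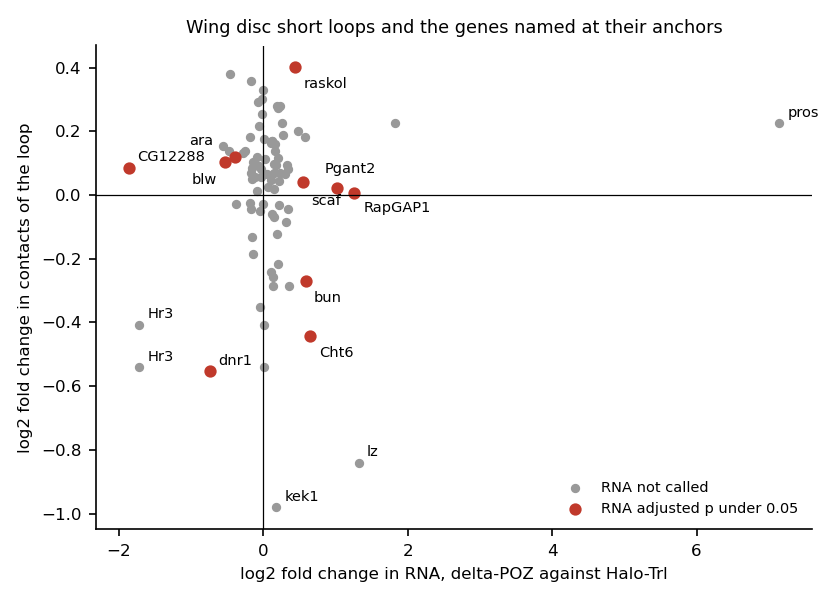
Log2 fold change in contacts of each short disc loop (vertical) against that in RNA of the gene named at its anchors (horizontal), delta-POZ against Halo-Trl, for 86 pairs of a loop and a tested gene. Red points are genes called in RNA; dnr1 is the one at which both the loop (-0.55) and the RNA (-0.74) were called, and pros rests on 1 library.

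Between delta-Q and Halo-Trl, 0 of the 83 genes were called in either direction, against 0.261% lower and 0.396% higher of all genes. At an unadjusted p under 0.05 there were 1 lower and 4 higher of the 83, where 308 and 502 of all 10359 genes were, and DESeq2 called 2, against 2.24% of all genes. Between delta-Q and delta-POZ, 4 were lower (bun, scaf, RapGAP1 and CG12123) and 4 higher (CG12288, ara, Hr3 and dnr1), against 1.55% and 3.05% of all genes, and 1 to 8 in all were called with a library left out, fewest without delta-Q 2 (1, against 2.45% of all genes). These comparisons share libraries with the first. Spearman's rho between the fold changes of loop and RNA over the 86 pairs was -0.01 for delta-POZ against Halo-Trl. It was -0.02 for delta-Q against Halo-Trl and 0.23 for delta-Q against delta-POZ, each a description.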

How the data were processed

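Both loop tables give, as deposited by the authors, the raw count of contacts at every loop in each library, and the deposited RNA table the raw count of reads for 17868 genes. The authors' deposited comparison tables list, per the file headers, log2 fold changes, p-values and other columns. Per the submitters' processing notes, BWA, bedtools and DESeq2 served the contact maps, and featureCounts and DESeq2 the RNA. Genome build, strand setting and tool versions were not stated by these sources; coordinates are the authors', written 1-based. Disc replicates are biological per the labels. Embryo labels do not say so, and p-values there cover only the spread between samples, possibly technical.

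Columns headed wt in the disc table were read as Halo-Trl, the remaining genotype, and embryo columns named for knock-out and GFP-GAF as GAF-deGradFP and control. Empty embryo cells (6) were read as 0. Tests used edgeR 4.0.16 in R 4.3.3 (glmQLFit, glmQLFTest, TMM), fitting all genotypes of a tissue together, for loops with at least 10 contacts in all and the 10359 genes kept by filterByExpr. Benjamini-Hochberg adjustment covered the whole table, with calls under 0.05. Standard errors are |log2 fold change| over the root of F, and 95% intervals span 1.96 SE on each side. TMM removes any shift common to all loops. The tests were tried on simulated counts.

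The members, role groups, marker lists and tests were chosen with earlier results of these data known. Loops were named if called, if among up to 5 others per direction with the smallest p and no overlap of groups, if among the 8 with most contacts, if shortest or at the 33 kb edge, or if shared (up to 10); up to 10 genes were named per RNA comparison. Not all are printed. Gene neighbours come from RefSeq (Release 6 plus ISO1 MT), without its coordinates. Same-numbered libraries did not deviate together (correlations of -0.10 to 0.18 in embryos, -0.26 to -0.06 in disc maps and -0.29 to 0.30 in RNA), so no replicate block was used. Alternatives were other scalings, DESeq2 1.42.0, filters, thresholds, distances and leaving out each library. Loop sequences were not used.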

Additional observations from a re-analysis of the deposited data

Results flagged for a closer look

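Groups of 4 embryo libraries were checked at named short loops and for the share of contacts in short loops, 52 in all. Far from the other 3 lay 5 single libraries, all at loops. Chance flags about 5% of such groups. At the eya loop, GAF-deGradFP 4 held 58.0 normalised contacts where the other depleted libraries held 79.8 to 83.4. At the CycE loop, control 1 held 12.1 where the other controls held 23.7 to 26.0, so that the fold change of this loop leans on a low control. At an unnamed loop on 3R (16719001 to 16720600 and 16729801 to 16731400), control 4 held 76.7 and the other controls 49.0 to 53.2. At the unnamed X loop of 32.4 kb (17313001 to 17314600 and 17345401 to 17347000), which matches the disc loop of B-H2, GAF-deGradFP 2 held 29.4 and the others 17.9 to 18.1. At an unnamed loop on 2R (14798601 to 14800200 and 14813801 to 14815400), control 2 held 26.2 and the others 31.8 to 32.6. None of these loops was called.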

How the results depend on the processing

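Embryo libraries were shallower than disc libraries at the loops, and each lone disc library left after removing its partner is assumed to vary like the other groups. The count of short embryo loops called (1) was 0 under a replicate block and 3 at an adjusted p under 0.1, against 5.91% of all embryo loops. This count was 0 to 5 with a library left out, and where it was 5, 8.6% of all embryo loops were called. The median log2 fold change of the short embryo loops (0.06) was 0.010 under upper quartile scaling and 0.013 under DESeq2 (0.02 to 0.08 with a library left out). For delta-POZ against Halo-Trl the count (3) fell in some fits with a library left out. The median (0.05) was -0.017 under upper quartile scaling and 0.089 when the longer loops set the scale. For delta-Q against Halo-Trl the median (0.01) was 0.00093 under RLE, -0.081 under upper quartile, -0.025 with total contacts, 0.0029 when longer loops set the scale, 0.0032 under DESeq2, 0.025 under 25 kb, 0.012 under a crossed block and -0.014 to 0.023 with a library left out. For delta-Q against delta-POZ the count (3) fell in some fits with a library left out. It was 1 under DESeq2, 5 at an adjusted p under 0.1, 1 under 25 kb and 5 under the crossed block. Of all disc loops, 2.39% were then called under DESeq2, 6.7% at an adjusted p under 0.1 and 5.74% under the crossed block. The median for delta-Q against delta-POZ (-0.03) was -0.055 under upper quartile, -0.051 with total contacts, -0.073 when longer loops set the scale, -0.0061 under 40 kb and -0.045 to -0.010 with a library left out. The genes called in RNA were 10 for delta-POZ against Halo-Trl (3 at 2-fold or more, 2 to 11 with a library left out), 0 for delta-Q against Halo-Trl (2 under DESeq2, 0 to 1) and 8 for delta-Q against delta-POZ (2 at 2-fold or more, 1 to 8). The share of all genes called moved too, to 4.90% and 2.19% at 2-fold or more in the first and last, and 2.24% under DESeq2 in the second. With a library left out it was 3.73% to 11.5%, 0.191% to 0.827% and 2.17% to 4.15% in that order. The causes were not tested.

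Replicate numbers gave no pairing. With them as a block, 0 short embryo loops, 2 for delta-POZ against Halo-Trl and 2 for delta-Q against delta-POZ were called. In both of these disc comparisons 3.83% of all loops were called. With Halo-Trl numbers crossed, chosen after seeing the data, the disc counts were 3 and 5, against 4.78% and 5.74% of all disc loops. The share of contacts in short loops under 25 and 40 kb was 47.5% and 69.5% for Halo-Trl, 49.1% and 70.8% for delta-POZ, 48.0% and 69.5% in delta-Q, 40.9% and 63.0% in control and 42.4% and 64.7% in GAF-deGradFP embryos. Without called loops the shares were 65.5%, 66.3%, 65.4%, 53.0% and 54.5% in that order, and with a library left out 64.0% to 64.7%, 65.5% to 66.1%, 64.3% to 64.4%, 52.3% to 52.6% and 54.0% to 54.3%. Besides the medians above that turned sign, signs turned in RNA of genes that were not called in that comparison. For delta-POZ against Halo-Trl, lz was at log2 -0.72 under the block and -2.66 to 2.25 with a library left out, Hdc at -0.018 and -0.47 to 0.58, and CG12123 at -0.11 to 0.046. For delta-Q against Halo-Trl the ranges were -0.21 to 2.53 for lz, -0.23 to 0.046 for dnr1, -0.12 to 0.058 for bun and -0.17 to 0.13 for Pgant2. For delta-Q against delta-POZ they were -0.15 to 0.016 for kek1, -1.53 to 4.25 for lz, -1.40 to 0.13 for TfAP-2 and -0.17 to 0.10 for Cht6.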

Other observations

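Some genes at short embryo loops were measured in disc RNA, a different tissue and stage. CycE was at 90.0, 99.5 and 94.2 CPM in Halo-Trl and 147, 116 and 130 where the POZ domain was deleted (log2 0.47, SE 0.12, edgeR adjusted p = 0.0304, up to 0.111 over its alternatives), with no overlap. TfAP-2 was low in discs, at 0.63, 0.752 and 1.17 CPM in Halo-Trl and 0.884, 4.95 and 1.18 in delta-POZ, and was not called (adjusted p = 0.191). Of 72 genes named at short embryo loops, 54 were tested, and 5 (9.26%) were lower and 4 (7.41%) higher in delta-POZ discs, against 5.2% and 4.93% of all genes tested.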
